A study of Schmidtea mediterranea with 4 samples.

Results

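The cells described here were selected on 2 transcripts in single-cell RNA sequencing (scRNA-seq) of the planarian *Schmidtea mediterranea*: a cell was chosen when it held at least 1 UMI (unique molecular identifier, a tag that counts each captured transcript once) of *nrps* (SMESG000023215.1) and at least 1 UMI of *LamA* (SMESG000056013.1). The rule found 50 of 48216 cells, called nrps+ LamA+ or double-positive cells below. It left 1608 cells with *LamA* and no *nrps*, 112 cells with *nrps* and no *LamA*, and 46446 cells with neither. The animals were mature worms of the sexual strain, kept at 18 °C and starved for 1 week, with no treatment or gene knockdown in any group. Tissue enriched for reproductive organs was cut from the anterior or the posterior of the body, dissociated, stained with Hoechst and propidium iodide and sorted, and there were 2 libraries of each region. Each library pooled the tissue of 15 to 20 animals. Whether libraries of one region came from different animals is not stated, so their spread may be technical.

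Germ cells depend on somatic niche cells, which lie around them in the gonads and supply the signals and the matrix that keep germline stem cells and guide their differentiation. Nonribosomal peptide synthetases join amino acids or related molecules without a ribosome, and the fly relative Ebony couples β-alanine to monoamines such as dopamine. *LamA* encodes a component of the extracellular matrix and served the study as a marker of somatic gonadal cells. Of the markers of such cells, only the 2 genes of the rule could be assigned to gene identifiers, while *aadc*, *dmd1*, *ophis* and *delta3* were not analysed here. The name niche cell therefore could not be checked against an independent marker, and the cells are called by the rule.

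Each library had 6721 to 19080 cells with 11513838 to 72094246 UMIs in total, and the smallest cell had 500 UMIs. Median depth was lower in anterior than in posterior cells, at 1209 and 1218 against 3297 and 2396 UMIs in the cells outside the rule. Pairs of libraries shared between 16 and 53 cell barcodes, 227 barcodes in all, and 1 double-positive cell, of posterior library 1, had a barcode that also occurred in another library. No doublets were removed. Of the double-positive cells, 7 stood apart by depth: they held between 7831 and 16261 UMIs, and the next deepest had 5393. These 7 cells carried 51.7% of all UMIs of the 50 cells, so the main counts and the levels of the named genes are also given without them.

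Double-positive cells were found in all 4 libraries. Anterior library 1 held 6 of them (0.0893% of the library, with an exact 95% binomial interval of 0.0328 to 0.194) and anterior library 2 held 18 (0.173%, 0.103 to 0.274). Posterior library 1 held 4 (0.0333%, 0.00906 to 0.0851) and posterior library 2 held 22 (0.115%, 0.0723 to 0.175). These intervals cover counting error only, as do all others given here. The 2 libraries of one region lay further apart than the regions did: the mean share was 0.131% ± 0.0594 in the anterior and 0.0743% ± 0.0580 in the posterior (SD, n = 2 libraries each). The difference of -0.0570 percentage points had p = 0.667 in a two-sided exact permutation test of the 4 libraries, whose smallest possible p is 0.333. With every cell of at least 1000 UMIs thinned to that depth, which left out 2577, 4088, 1614 and 4147 cells, the libraries held 3, 9, 3 and 11 double-positive cells and the difference was -0.0564 percentage points.

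**Figure D1:**
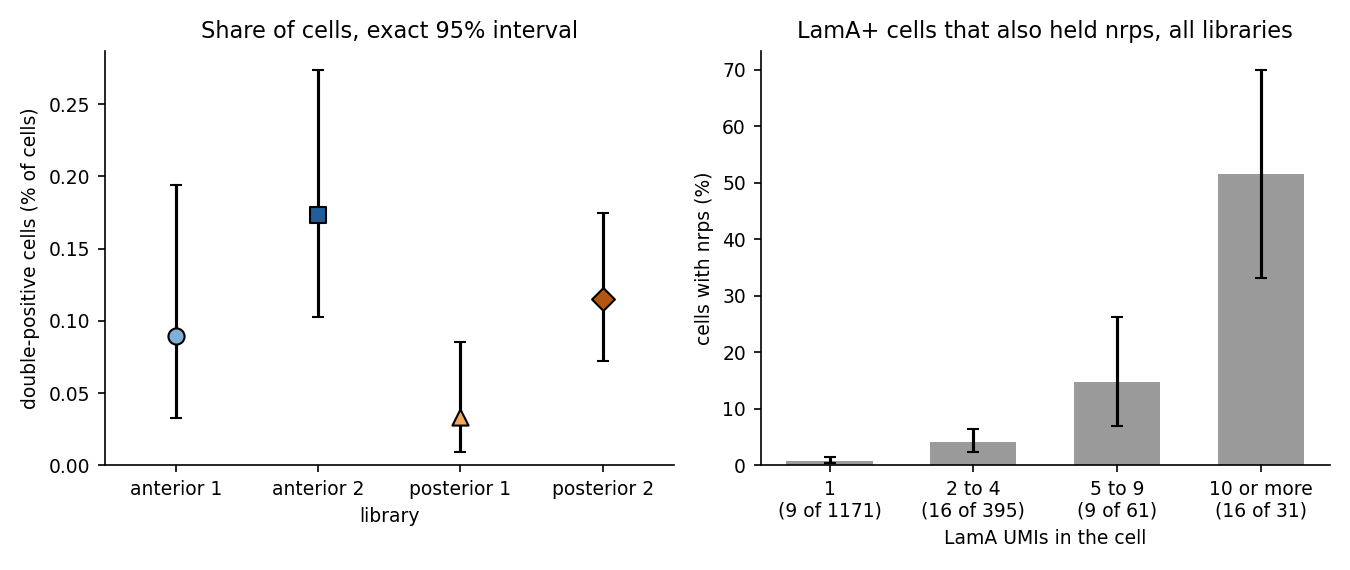
Left, double-positive cells as a percentage of the cells of each library, with exact binomial 95% intervals. Right, percentage of LamA+ cells that also held nrps, by the number of LamA UMIs in the cell, with the same interval and the counts under each bar. The share was highest in anterior library 2, at 0.173%, and on the right it went from 0.769% of cells with 1 LamA UMI to 51.6% of cells with 10 or more.

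The 2 genes of the rule were often found in the same cell. *LamA* was present in 30.9% of the 162 nrps+ cells (interval 23.9 to 38.6) and in 3.35% of the cells without *nrps*, and these values are a description, since they define the cells. By library, 28.6% and 56.3% of the anterior and 9.76% and 32.4% of the posterior nrps+ cells held *LamA*, against 1.97%, 2.38%, 3.81% and 4.07% of the nrps- cells. In the other direction, *nrps* was present in 3.02% of LamA+ cells and in 0.241% of LamA- cells. Detection of both depended on the level of each. Of cells with 1 *nrps* UMI, 22 of 126 held *LamA* (17.5%), and of cells with 2 or more, 28 of 36 did (77.8%). Of cells with 1 *LamA* UMI, 9 of 1171 held *nrps*, and of cells with 10 or more, 16 of 31 did (51.6%, 33.1 to 69.8). The median depth of these last groups was 3467 and 2369 UMIs, pooled over libraries of unlike depth. Of the 16 double-positive cells with 10 or more *LamA* UMIs, 12 were at or above the median depth of their library. The same held for 6 of the 9 with 1 *LamA* UMI, and a part played by depth was not tested.

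Double-positive cells held 0.0963% of all UMIs of the series, 159 of its 279 *nrps* UMIs (57.0%) and 438 of its 3049 *LamA* UMIs (14.4%). Over the cells of a library summed together, *nrps* stood at 1326 and 1607 CPM (the UMIs of a gene relative to all UMIs of the same cells) in the anterior and at 279 and 1057 CPM in the posterior. *LamA* stood at 5304 and 5713 CPM in the anterior and at 1920 and 1888 CPM in the posterior. These levels rested on the 7 deepest cells: without them, *nrps* stood at 1326, 2228, 792 and 2340 CPM and *LamA* at 5304, 8030, 6602 and 4267 CPM in the same order of libraries, and the *LamA* levels of the regions overlapped. Within single cells, *nrps* ranged from 1 to 21 UMIs (median 2) and *LamA* from 1 to 47 UMIs (median 4.5). As a description of cells that were chosen on these same counts, the UMIs of *nrps* and *LamA* had a Spearman's rho of 0.61 over the 50 cells of 4 libraries and of 0.56 over the 41 with at least 2 *LamA* UMIs. Both counts share the depth of the cell, and *LamA* UMIs and depth had a rho of -0.07 over the 50 cells and of 0.29 over the 41.

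The 7 deepest cells differed from the other 43 in both genes. They came from anterior library 2 (1 cell), posterior library 1 (2 cells) and posterior library 2 (4 cells), each held 1 *nrps* UMI, and 6 of them held 1 *LamA* UMI. Summed over the 7 cells, *nrps* was at 88.8 CPM and *LamA* at 127 CPM, while the other 43 cells were at 2062 and 5806 CPM. Just outside the rule lay 8 cells with 2 *nrps* UMIs and no *LamA*, and 15 cells with 10 to 31 *LamA* UMIs and no *nrps*. Just inside it lay 7 cells with 1 UMI of each gene, with a median of 11827 UMIs per cell, and 6 of these 7 were above the median depth of their library.

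**Figure D2:**
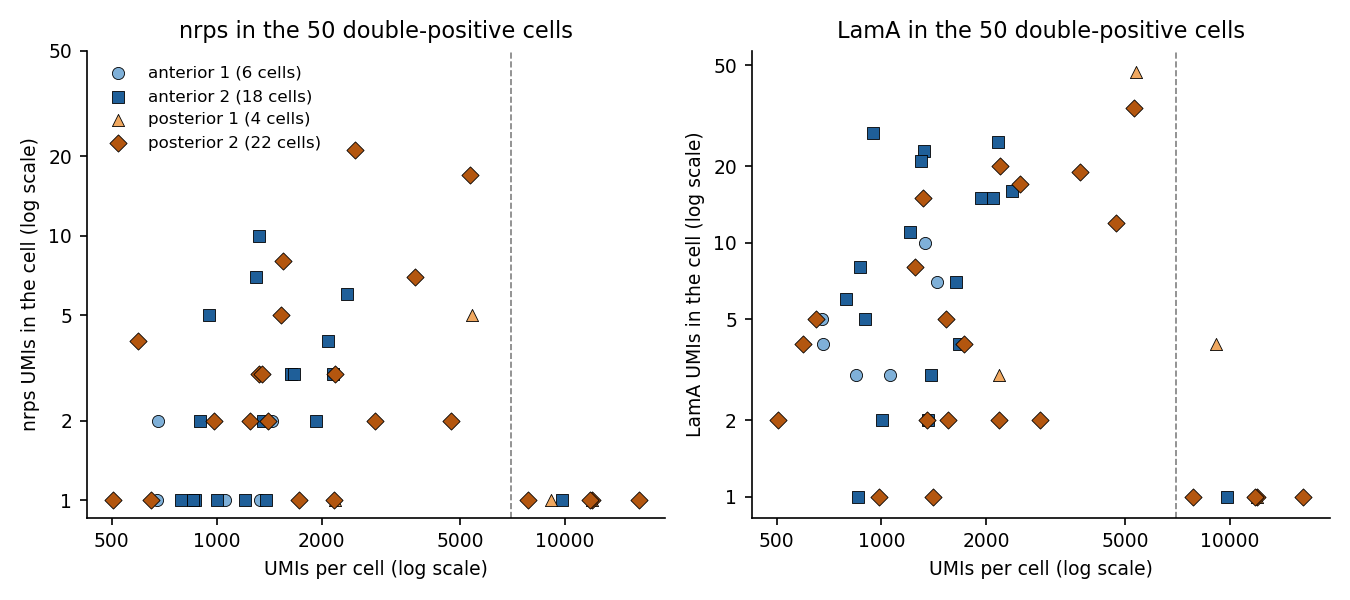
UMIs of nrps (left) and of LamA (right) in each double-positive cell against the UMIs of the cell, both axes on a log scale, with 1 point per cell and the library by color and shape. The dashed line marks 7000 UMIs, right of which lie 7 cells with 1 nrps UMI each. The highest counts, 21 nrps UMIs and 47 LamA UMIs, were in cells of 2498 and 5393 UMIs.

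The double-positive cells were not deeper than other cells in a way that held across libraries. The log2 ratio of their median UMIs per cell to that of the other cells was -0.35 and 0.14 in the anterior libraries and 1.14 and -0.30 in the posterior libraries. It averaged 0.16 ± 0.69 (SD, n = 4 libraries, p = 0.875 in a two-sided exact sign-flip permutation test, smallest possible p 0.125). The sign of this mean rested on posterior library 1, with 4 double-positive cells, 2 of them among the deepest, and the mean was -0.17 without that library or without the 7 deepest cells. At an equal depth of 500 UMIs, double-positive cells showed fewer genes in each library, with medians of 378, 388, 371.5 and 397.5 genes against 403, 411, 407 and 413 in the other cells. The 10 most abundant genes of a cell took a median of 16.8%, 14.3%, 16.1% and 12.8% of these UMIs, against 11.6%, 10.2%, 10.4% and 10.0% in the other cells. The 7 deepest cells differed from the other 43 here as well, with a median of 423 against 386 genes.

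The main comparison asked which other genes set the double-positive cells apart from the remaining cells of the same library. UMIs were summed over each of the 2 groups in each library and compared within libraries by edgeR's quasi-likelihood test, without *nrps* and *LamA* in the table. Of 14498 genes tested, 510 were higher in double-positive cells (3.52%) and 152 were lower (1.05%) at an adjusted p under 0.05. The higher genes had a median log2 fold change of 2.99 and the lower genes one of -3.29, against -0.32 over all genes tested. Of the 510, 261 were higher in each of the 4 libraries, as were 3.99% of all genes tested, and 147 of the 152 were lower in each, as were 34.4% of all genes tested, where a gene with no UMI in the double-positive cells of a library counts as lower there. The split of calls depended on scaling: 77.0% of calls were higher with library totals and 62.7% with TMM factors, which put the median of all genes at -0.75. Without anterior library 2 or posterior library 2 there were 335 and 318 higher genes, and without anterior library 2, posterior library 1 or posterior library 2 there were 45, 68 and 59 lower genes.

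Without the 7 deepest cells, a choice made after the data were seen, 750 genes were higher and 247 lower. Of the 510 higher genes, 473 (92.7%) were also higher there, and they made up 63.1% of the 750. Of the 152 lower genes, 61 were also lower there. With TMM factors in addition, the counts turned to 422 higher and 896 lower genes, so the number of lower genes depended on scaling and on these cells. The UMIs of the higher genes came mainly from the other 43 cells: the deepest cells carried 11.9% of the UMIs of the 510 genes in double-positive cells, although they carried 51.7% of all UMIs. For 33 of the 510, the deepest cells held more than the others.

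For a part of the higher genes, the double-positive cells held a large share of the transcripts found in the series. The 50 cells held more than 1% of all UMIs of the series for 181 of the 510 genes, and more than 10% for 12 of them. The median share was 0.730% over the 510 genes and 0.0792% over all genes tested. The 510 were called as higher in these same cells, so a larger share follows from the call. How many of all genes tested passed 1% or 10% was not counted. The 12 genes had 788 UMIs in double-positive cells, of which 1 was in the deepest cells, and each was found in 9 to 33 of the 50 cells. For 11 of the 12, the level was higher than in the other cells in 4 of 4 libraries, which follows in part from the call. Not every double-positive cell showed a given gene: the median higher gene was seen in 11 of the 50 cells, 298 genes in at least 10 cells and 49 genes in at least 25.

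The files pair no gene symbols with identifiers, so 2 identifiers are given in each direction, taken by fold change among genes that went the same way in 4 of 4 libraries, and no function is stated for them. SMESG000038877.1 had 2 and 25 UMIs in double-positive cells of the anterior libraries and 13 and 23 in those of the posterior libraries, or 332, 744, 454 and 273 CPM. In the other cells it stood at 0.174, 0.782, 0.343 and 1.40 CPM. This gap follows from the choice by fold change, and the gene passed the filter on low counts only through its double-positive sums. Without the 7 deepest cells its levels were 332, 1051, 1716 and 633 CPM. The fitted log2 fold change came to 9.20 ± 0.49 (SE) at an adjusted p of 3e-74 in edgeR, with p-values adjusted by Benjamini-Hochberg over all genes tested. The size of this p depended on the model: without the library as a block, edgeR gave an adjusted p of 2.9e-06. It was found in 24 of the 50 cells, with at most 10 UMIs in a cell, and 31.5% of its UMIs in the series lay in these 24 cells. In posterior library 1 it was seen in 2 of 4 cells, and 1 of them held 10 of its 13 UMIs.

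SMESG000066844.1 was the more abundant of the pair. It stood at 2155 and 1339 CPM in double-positive cells of the anterior libraries and at 1257 and 1449 CPM in those of the posterior libraries, from 13, 45, 36 and 122 UMIs. The other cells were at 3.13, 5.47, 1.30 and 4.11 CPM, again a gap that follows from the choice. The fitted log2 fold change came to 8.88 ± 0.46 (SE), at an edgeR adjusted p of 1.3e-77, or 8.9e-08 without the library as a block. It was found in 31 of the 50 cells, but the level of a library could rest on 1 cell. In posterior library 1 it was seen in 2 of 4 cells, and 1 of them held 33 of its 36 UMIs. In posterior library 2, 1 cell held 63 of 122 UMIs. Neither of these genes had a UMI in the 7 deepest cells, and without those cells SMESG000066844.1 stood at 2155, 1892, 4753 and 3359 CPM.

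**Figure D3:**
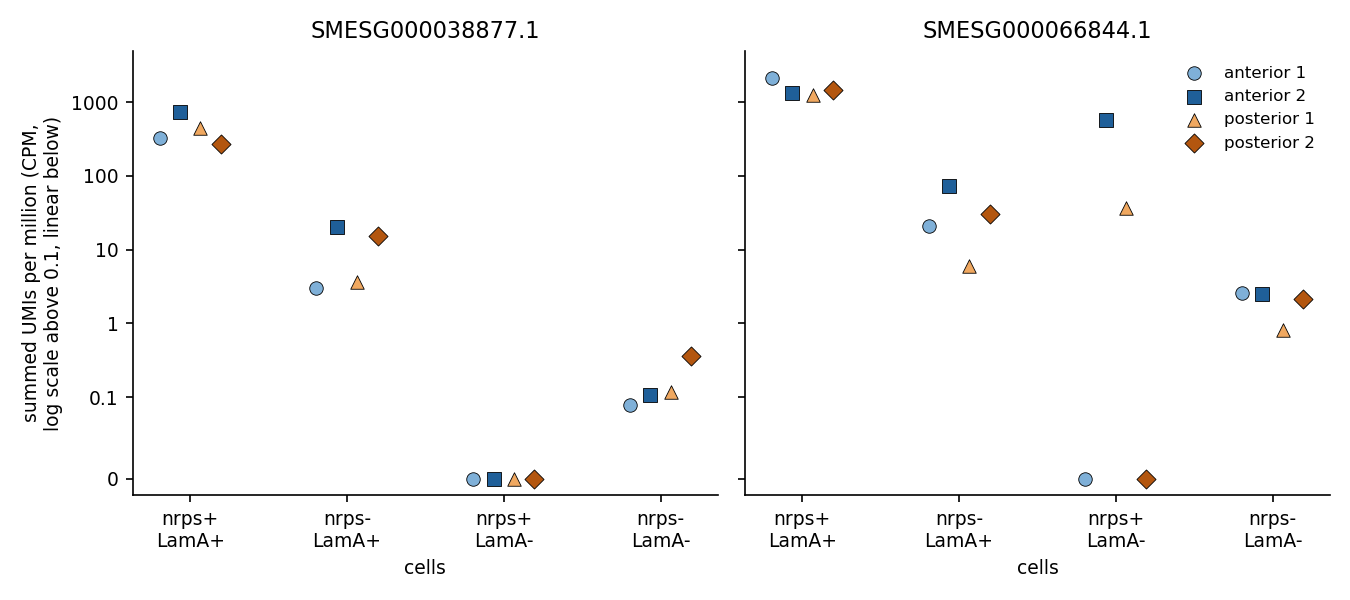
Level of the 2 identifiers with the largest fold change in nrps+ LamA+ cells, in cells with LamA alone, with nrps alone and with neither, as CPM of the UMIs summed over the cells of a library, 1 point per library, on an axis that is logarithmic above 0.1 and linear below. In all 4 libraries the nrps+ LamA+ cells were the highest group for both genes, and SMESG000038877.1 was at 0 in cells with nrps alone. Both genes were chosen by fold change from these same nrps+ LamA+ cells.

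Among the lower genes, 44 of 152 had no UMI in the 50 cells, and the median lower gene had 2. SMESG000016720.1 had 0 UMIs in double-positive cells and 85.7, 102, 144 and 150 CPM in the other cells of the 4 libraries. With 3 UMIs over all double-positive cells as the limit of a count of 0, or 19.7 CPM, it was at least 6.98-fold lower (edgeR adjusted p = 2.1e-05). Over the 43 cells without the deepest, the limit was 40.7 CPM, which gave at least 3.38-fold (edgeR adjusted p = 0.007). The counts of 0 carried unequal weight, because at the level of the other cells the double-positive cells would have held 0.517, 3.43, 4.12 and 12.6 UMIs in the 4 libraries. Without posterior library 2 edgeR gave it an adjusted p of 0.056. SMESG000021744.1 also had 0 UMIs, while the other cells were at 190, 90.6, 168 and 84.0 CPM, and was at least 6.20-fold lower by the same limit (adjusted p = 0.00013 from edgeR). Without the deepest cells this was at least 2.998-fold (adjusted p = 0.018 from edgeR), and the level of the other cells would have given 1.15, 3.04, 4.81 and 7.07 UMIs in the 4 libraries. Its adjusted p was 0.095 in edgeR without the library as a block. SMESG000016720.1 was at 41.6 CPM in cells with *LamA* alone and 57.4 CPM in cells with *nrps* alone, against 144 CPM in cells with neither. SMESG000021744.1 was at 169 CPM with *LamA* alone, 7.40 CPM with *nrps* alone (4 UMIs) and 119 CPM with neither. Low levels were thus not particular to the double-positive cells.

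Of the genes with a known role, *klf4l* (SMESG000031008.1), which in the study marks germline stem cells and yolk cell progenitors, had 0 UMIs in the 50 double-positive cells. This allows up to 19.7 CPM, or 40.7 CPM over the 43 cells without the deepest, and a share of up to 6% of cells with a UMI, and the other cells were at 7.59 CPM, so a difference was not detectable at this depth (adjusted p = 0.47 from edgeR). The paralog of *nrps* that is expressed in the gut (SMESG000014974.1) had 3 UMIs in 3 cells, and whether reads of the paralogs could be confused was not tested. Its level was 19.7 CPM (exact Poisson 95% interval 4.06 to 57.5) against 31.6 CPM in the other cells (adjusted p = 0.70 from edgeR). Of its 3 UMIs, 2 were in the deepest cells.

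The cells most like the double-positive ones by rule are the 1608 with *LamA* and no *nrps*. Against these, 230 of 4307 genes tested were higher in double-positive cells (5.34%) and 82 were lower (1.9%) by the same edgeR test. Of the 230, 186 were higher in each of 4 libraries, as were 10.5% of all genes tested, and 81 of the 82 were lower in each, as were 16.1% of all genes tested. This agreement was partly built in by the filter on low counts. A gene low in one group was tested only if the sums of the other group passed it. Both comparisons use the same double-positive sums. The 2 higher identifiers were chosen by fold change from these sums, which they also needed to pass the filter, so their values here are a description. SMESG000038877.1 stood at 10.8 CPM in cells with *LamA* alone, with 104 UMIs in 33 of them (log2 fold change 5.27 ± 0.43 (SE), edgeR adjusted p = 7.3e-32). With only comparison cells of similar depth its log2 fold change was 4.20 ± 0.72 (SE, adjusted p = 0.0082 from edgeR). SMESG000066844.1 stood at 23.6 CPM in cells with *LamA* alone (log2 fold change 5.91 ± 0.41 (SE), edgeR adjusted p = 1.5e-42). With only comparison cells of similar depth its log2 fold change was 4.74 ± 1.27 (SE, adjusted p = 0.18 from edgeR, 1185 genes tested).

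These counts changed with the cells used. Without the 7 deepest cells, 423 genes were higher and 303 lower, and the 220 genes that were higher both with and without them made up 95.7% of the 230 and 52.0% of the 423. With comparison cells of similar depth, 53 genes were higher and 22 lower among the 1185 that could be tested. All double-positive cells, the deepest included, stayed in that comparison. TMM factors moved the share of higher calls from 73.7% to 60.6%.

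To see whether the pattern of one library held in another, each library was left out of the test in turn and the genes called higher in the other 3 were then measured in it. Of 392 genes called without anterior library 1, 240 were higher in its own double-positive cells than in its other cells (61.2%, against 16.5% of all genes tested). For anterior library 2 this was 296 of 335 genes (88.4% against 30.5%), for posterior library 1 338 of 430 (78.6% against 29.3%) and for posterior library 2 290 of 318 (91.2% against 38.0%). The background differs between libraries because a library with few double-positive UMIs has no UMI of most genes. In each library, the share of genes higher in the double-positive cells was larger among the genes called elsewhere than among all genes tested. The called genes were also detected more often. In the same order, 245, 296, 343 and 302 of them had a UMI in the double-positive cells of the library left out. Of all genes tested, 19.1%, 50.1%, 45.4% and 70.3% had one, so the shares were not compared at equal detection.

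The same genes took a larger part of the UMIs of the double-positive cells in the library left out. They made up 18.2% and 13.5% of the UMIs of double-positive cells in the anterior libraries and 9.41% and 7.50% in the posterior libraries. In the other cells they made up 2.71%, 1.29%, 1.40% and 1.43%, so the groups did not overlap. Cells with *LamA* alone lay at 4.34%, 2.99%, 1.70% and 2.04%, and cells with *nrps* alone at 3.99%, 1.76%, 2.11% and 1.19%. In the deepest double-positive cells, present in 3 libraries, the share was 1.01%, 3.15% and 1.11%.

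**Figure D4:**
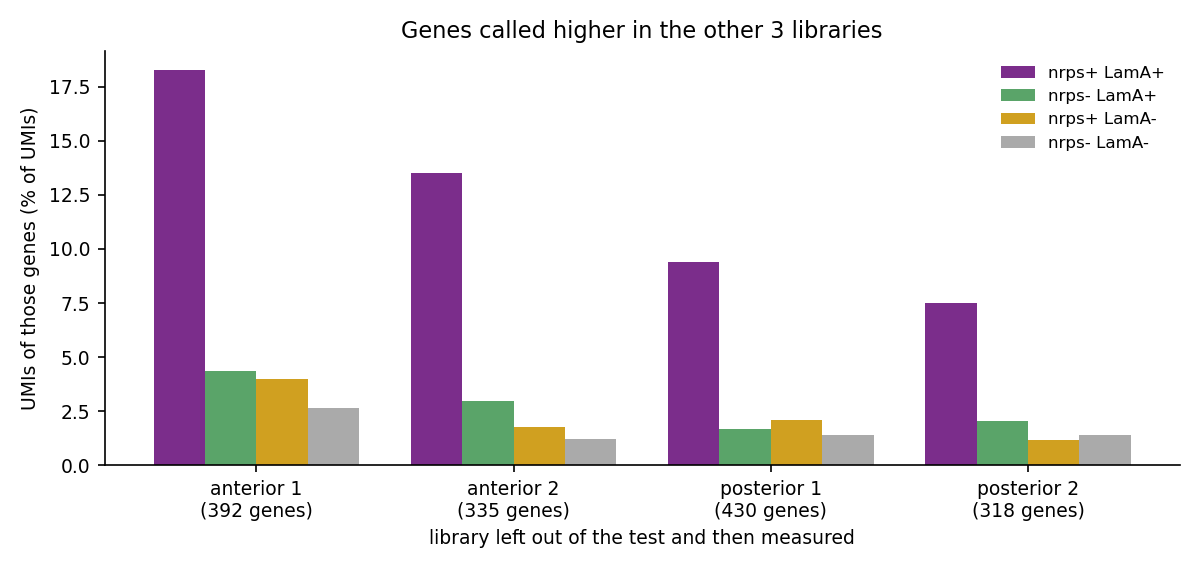
UMIs of the genes called higher in double-positive cells of the other 3 libraries, as a percentage of all UMIs summed over each group of cells in the library left out, with the number of genes under each library. The nrps+ LamA+ cells stood between 7.50% and 18.2%, above the groups with 1 gene or neither gene of the same library.

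Single cells were then placed by this measure, with gene lists made from the double-positive cells under 7000 UMIs of the other 3 libraries. The share of UMIs in these genes had a median of 21.3% over the 50 cells (range 1.07 to 34.4) and of 2.40% over the other cells. Of the 50, 41 lay above the 95th percentile of the other cells of their library. This held for 40 of the 43 cells under 7000 UMIs (median 22.1%) and for 1 of the 7 deepest cells (median 2.34%). Among cells with *nrps* alone, 14 of 112 lay above that percentile, and among cells with neither gene 2124 of 46446 did.

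A count of neighbors, made without the 4 genes of known identifier, gave a further description of the cells. Other marker genes of the study have no assigned identifier here and could take part in it. Each cell was joined to the 20 cells nearest to it in expression over the 4 libraries together. Of the 50 double-positive cells, 37 had at least 1 other double-positive cell among these 20, 32 had at least 5, and the median was 7 and the highest 14. For 33 of the 50, such a neighbor came from another library. By library, 5 of 6, 14 of 18, 2 of 4 and 16 of 22 had one. Of every 50th cell outside the rule, 8 of 964 (0.830%) had a double-positive neighbor, as did 55 of the 1608 cells with *LamA* alone (3.42%) and 2 of the 112 with *nrps* alone (1.79%).

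The 13 double-positive cells without such a neighbor comprised all 7 of the deepest cells and 6 others. Of those 6, 4 were above the 95th percentile by the share of UMIs described before. All 16 double-positive cells with 10 or more *LamA* UMIs had such a neighbor, with a median of 12, while 3 of the 9 with 1 *LamA* UMI did. By both measures the deepest cells lay apart from most other double-positive cells. This may be partly built in, because the gene lists were made without the deepest cells and neighbors were not compared at equal depth. Whether the deepest cells were doublets was not tested.

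**Figure D5:**
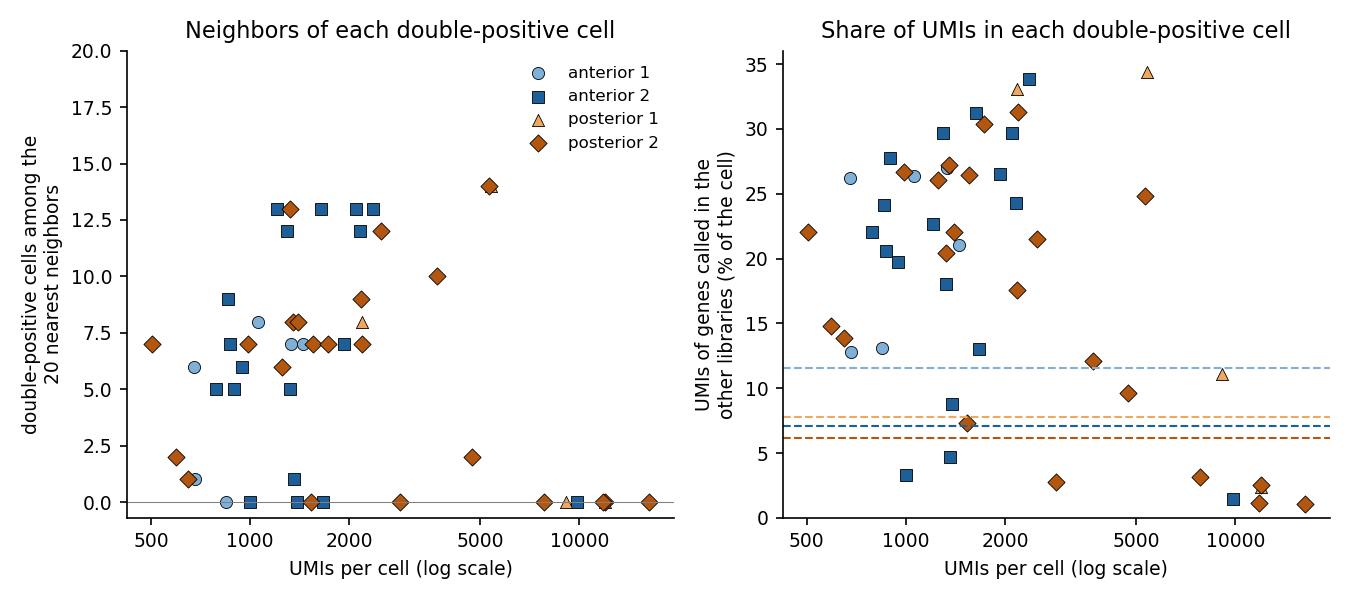
Left, number of double-positive cells among the 20 nearest neighbors of each double-positive cell. Right, percentage of the UMIs of each double-positive cell in genes called from the double-positive cells under 7000 UMIs of the other 3 libraries. Dashed lines mark the 95th percentile of the other cells of each library in the color of that library. Both are plotted against UMIs per cell on a log scale. The 7 cells of 7831 UMIs or more had 0 double-positive neighbors, and 1 of them lay above the line of its library.

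The regions were compared within the double-positive cells. Between 2 posterior and 2 anterior sums, 0 of 540 genes tested (0.0%) differed at an adjusted p under 0.05 in edgeR's quasi-likelihood test, 26 had an unadjusted p under 0.05, and DESeq2 called 0. This count depended on the libraries, since it was 6 without anterior library 1, 77 without anterior library 2, 0 without posterior library 1 and 8 without posterior library 2. A direct test of whether the difference between double-positive and other cells was the same in both regions called 0 of 14498 genes (0.0%) in edgeR, with 166 at an unadjusted p under 0.05, and DESeq2 called 0. It called 1, 2, 0 and 7 genes when each library in the same order was left out. With 6, 18, 4 and 22 cells per library, these tests do not show that the double-positive cells of the regions were alike.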

How the data were processed

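For every library the authors deposited a matrix of raw UMI counts, genes by cells, which Cell Ranger 5.0.0 had written and which carries no normalization. The study gives the S2F2 assembly of the sexual strain (SMESG.1) as the genome aligned to. All barcodes were used over 22192 listed genes. The identifiers of *LamA*, *klf4l* and the gut paralog of *nrps* follow from their transcript numbers in the study. Cells were assigned to double-positive, *LamA* alone, *nrps* alone or neither by at least 1 UMI, and UMIs were summed per library and group, since cells of a library are not replicates.

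Sums entered edgeR 4.0.16 under R 4.3.3 (quasi-likelihood test, filter on low counts, library totals without TMM factors, library as a block, Benjamini-Hochberg adjustment over all genes tested at 0.05). *nrps* and *LamA* were left out of the tables tested. A gene could pass the filter through the sums of a single group, so a gene low in one group was tested only if the other group's sums passed. DESeq2 1.42.0 was an alternative. Other alternatives were TMM factors, no filter, no block, at least 2 *LamA* UMIs, the deepest 5% of barcodes of each library left out, comparison cells of similar depth, each library left out, and a replicate block. Similar depth meant comparison cells within the interquartile range of the UMIs per cell of the double-positive cells of their library. All double-positive cells were kept there, so the groups were not matched in depth. Removal of the 7 deepest double-positive cells was added after the data were seen. The tests were tried on simulated counts.

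Identifiers were named by a rule: the largest fold changes among genes past the threshold with the same direction in 4 of 4 libraries and, if higher, at least 10 UMIs. A count of 0 was given a limit of 3 UMIs or cells. Neighbors were found with scanpy 1.11.5 and scikit-learn 1.9.0 from counts scaled to 10000 per cell, log-transformed, with 3000 variable genes without the named genes and 50 principal components. Permutation tests enumerated all arrangements. No doublet caller was run. The 2 libraries with the same number were not taken as pairs, since the labels do not tie them. The cells, the gene lists and the tests were chosen with earlier results of these data known.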

Additional observations from a re-analysis of the deposited data

How the results depend on the processing

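Main values stand in the report. Higher genes against all other cells numbered 330 with TMM factors, 320 in DESeq2 and between 318 and 430 with a library left out. Lower genes numbered 92 without the library block, 259 with at least 2 *LamA* UMIs, 247 without the 7 deepest cells, 896 with TMM factors in addition, and between 45 and 107 with a library left out. Against cells with *LamA* alone, higher genes numbered 414 without a filter on low counts, 413 with at least 2 *LamA* UMIs, 53 with comparison cells of similar depth (1185 genes tested) and 423 without the 7 deepest cells. Lower genes numbered 210 without a filter, 32 without the block, 291 with at least 2 *LamA* UMIs, 51 without the deepest 5% of barcodes (2181 genes tested), 22 at similar depth and 303 without the 7 deepest cells. With a library left out there were 167 to 313 higher and 60 to 114 lower genes. Posterior against anterior double-positive cells gave 1 gene without a filter and 2 with a replicate block, against 0 without it, and between 0 and 77 with a library left out. The deviations of same-numbered libraries had a correlation of 0.06 over 1658 genes. The test of the regional difference called between 0 and 7 genes with a library left out. The log2 ratio of median UMIs per cell changed sign with means over cells (-0.0255), with at least 2 *LamA* UMIs (-0.0118), against cells with *LamA* alone (-0.315), without the 7 deepest cells (-0.166), and ranged from -0.168 to 0.33 with a library left out. Apart from the shifts that fewer genes tested or fewer libraries bring, the cause was not tested. The 2 higher identifiers kept an adjusted p under 0.05 against all other cells in all 13 alternatives, by edgeR or DESeq2, with log2 fold changes of 8.81 to 10.26 for SMESG000038877.1 and 8.25 to 9.82 for SMESG000066844.1. Depth limits genes with few UMIs, since the double-positive cells of anterior library 1 held 6033 UMIs in all.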

Other observations

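Outside the rule, some cells with *LamA* alone shared the pattern of the double-positive cells. The measure was the share of UMIs in genes called higher in double-positive cells under 7000 UMIs of the other libraries. By it, 272 of the 1608 cells with *LamA* alone lay above the 95th percentile of the cells outside the rule in their library. Of the cells with neither gene, 2124 of 46446 did. By library, the cells with *LamA* alone above it were 41 of 132, 61 of 246, 69 of 457 and 101 of 773. Of the 15 cells with 10 or more *LamA* UMIs and no *nrps*, 11 did, with a median share of 6.71%, against 21.3% in the double-positive cells. Of these 15 cells, 4 had a double-positive cell among their 20 nearest neighbors. Cells with *LamA* alone that had a double-positive neighbor numbered 55, and 35 of them had at least 5.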
